A study of Mus musculus with 75 samples.

Results

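Whole-kidney RNA from mice labelled *Pdgfb* iKO was compared between the obstructed and the contralateral kidney 3 days after unilateral ureter obstruction (UUO). The members are the 8 libraries that the labels give the genotype PbKO, 4 from UUO kidneys and 4 from contralateral (CL) kidneys, of 75 libraries in the whole series. In UUO the ureter of 1 kidney is tied, so that urine backs up into it, and the CL kidney is not tied. The *Pdgfb* iKO mice carried floxed *Pdgfb* and a tamoxifen-inducible *Actb*-CreERT2 transgene that the CAG promoter drives in all tissues, and received tamoxifen in the week before the experiment, so the deletion was meant for the whole body and not for 1 cell type. The control mice, labelled PbWT, were Cre-negative littermates with *Pdgfb* wt/lox or lox/lox, and gave 4 UUO and 4 CL libraries, the CL ones including kidneys of sham-operated mice that the labels do not mark. All were adult mice of both sexes on a mixed background, and mice with UUO received the analgesic carprofen. Below, UUO and CL without a genotype mean the libraries labelled *Pdgfb* iKO, numbered in the order of their labels. The numbers pair no UUO with a CL kidney. In the study's design the CL kidney is the internal control of the same mouse, a pairing that the tests here leave out.

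PDGFB is a secreted growth factor that binds the receptor PDGFRB on pericytes, vascular smooth muscle cells and fibroblasts, and PDGF signaling is known for driving these cells to divide and to lay down matrix. An obstructed kidney is known for injured tubular epithelium, which turns on repair and stress genes and gives up much of its transport and oxidative metabolism, and for immune cells and matrix that gather between the tubules. The comparison asks how this response looks in kidneys from which *Pdgfb* was meant to be removed.

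Library totals were 444475 to 1017811 counts in CL and 337545 to 1249343 in UUO, with UUO replicate 1 the shallowest and apart from the other 3 UUO libraries on the second principal component (52.6, against -24.8 to -16.3). Levels are given in CPM, the count scaled to the library size times its TMM factor, a normalization factor that evens out composition. The kidney markers *Lrp2*, *Slc34a1*, *Umod* and *Aqp2* had counts in all 8 libraries. *Xist*, the RNA of the inactive X chromosome of female cells, stood at 1.30, 563, 395 and 467 CPM in CL replicates 1 to 4, while the summed Y-linked genes *Ddx3y*, *Eif2s3y*, *Kdm5d* and *Uty* stood at 155, 2.55, 0 and 1.02 CPM. In UUO replicates 1 to 4 *Xist* stood at 238, 166, 219 and 46.2 CPM and the Y-linked sum at 105, 113, 88.8 and 97.9 CPM. Each CL library therefore held high levels of either *Xist* or the Y-linked genes, and every UUO library held both, which the kidney of a single mouse is not known to do. Both reached 10 counts in 24 of the 75 libraries of the series, 4 of the 8 control libraries used here among them, such as control UUO replicate 1 with 132 CPM of *Xist* and 141 CPM of Y-linked genes. CL replicates 2 to 4 held *Xist* and almost no Y-linked counts, which is more libraries than the study's supplement lists female *Pdgfb* iKO mice. What these patterns mean for the results below was not tested, and no comparison could be made within libraries of 1 such pattern.

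**Figure D1:**
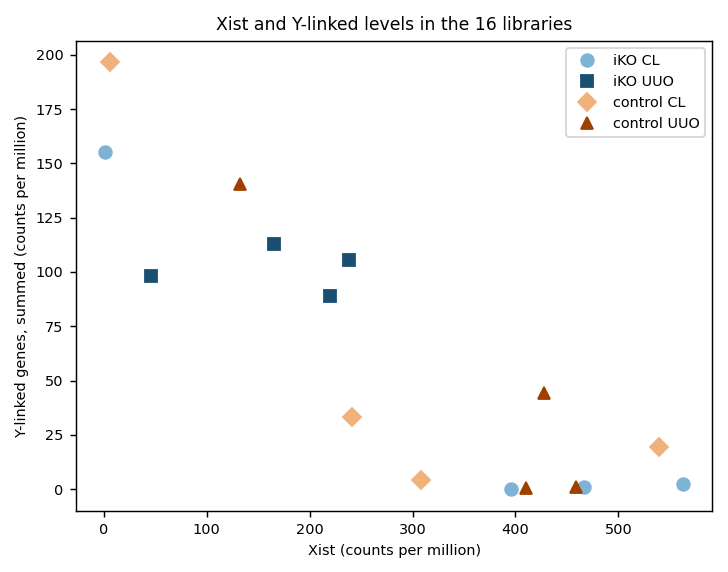
Each point is 1 of the 16 libraries, with *Xist* on the horizontal and the summed Y-linked genes on the vertical axis, both in CPM. The 4 UUO libraries labelled *Pdgfb* iKO lie between 46.2 and 238 CPM of *Xist* and between 88.8 and 113 CPM of Y-linked genes, away from both axes.

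Markers of skeletal muscle, a tissue outside the kidney, summed to 89.9 to 120 CPM in CL and 5.57 to 68.0 CPM in UUO, without overlap (exact 2-sided permutation test, p = 0.0286, the smallest that 4 against 4 can give, n = 4 and 4; adjusted p = 0.124 over the per-library values compared). *Acta1*, *Ckm* and *Myh4*, the members with enough counts, all fell (3 genes, but 1 without UUO replicate 4, and *Myh4* only with all of CL replicates 2 to 4 and UUO replicates 2 to 4 kept). The share of mitochondrial counts was 2.83% to 4.11% in CL and 1.94% to 3.61% in UUO (exact permutation p = 0.114). Adrenal cortex markers summed to at most 11.6 CPM and markers of lymphocytes and neutrophils to at most 23.9 CPM in any of the 8 libraries, and no gene of either list could be tested. Red blood cell markers ranged from 538 to 1582 CPM in CL and from 575 to 851 CPM in UUO. Adipocyte markers ranged from 61.2 to 354.3 CPM in CL and from 26.3 to 382.2 CPM in UUO. Both pairs of ranges overlap.

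*Pdgfb* (chr15:79995865-80024614, mm10) stood at 16.9, 17.8, 25.4 and 17.3 CPM in CL and at 34.0, 36.6, 39.2 and 41.4 CPM in UUO. Every UUO library lay above every CL library, and the values rested on 7 to 17 counts in CL and 10 to 52 in UUO. *Pdgfb* rose by 1.03 on the log2 scale (SE 0.27, adjusted p = 0.0232). Adjusted p-values of single genes here come from the quasi-likelihood test of edgeR, adjusted over all 10923 genes tested by the method of Benjamini and Hochberg, and changes are log2 fold changes of UUO against CL. In control mice it stood at 4.52 to 20.3 CPM in CL and 44.1 to 58.9 CPM in UUO kidneys, so the CL libraries labelled *Pdgfb* iKO were not lower than those of the controls and go against their label, while all 4 UUO libraries labelled so lay below all 4 of the controls. Counts per gene cannot tell intact transcripts from those that lack the floxed exon. The rise of *Pdgfb* lost its call without CL replicates 1, 2 or 4 or UUO replicate 4, in 1 fit over all 12 groups, after thinning and with the Y-linked genes as a covariate (adjusted p up to 0.201).

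Of the other ligands, *Pdgfa* had a log2 fold change of 0.67 (adjusted p = 0.149), *Pdgfc* of 0.15 and *Pdgfd* of -0.07. The receptor *Pdgfrb* stood at 15.3 to 28.5 CPM in CL and 21.7 to 45.4 CPM in UUO, ranges that overlap (log2 fold change 0.33, SE 0.27, adjusted p = 0.54). The receptor *Pdgfra* stood at 12.7 to 23.4 CPM and 20.6 to 51.0 CPM (0.89, SE 0.31, adjusted p = 0.0927). Thus 1 of the 6 PDGF ligands and receptors tested rose and none fell, where 3.94% of all genes tested rose and 2.42% fell.

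Across all genes, 430 rose (3.94% of those tested) and 264 fell (2.42%), and the median log2 fold change of all genes was 0.00. Of the rises 276 were over 2-fold and of the falls 43. The counts of each gene list below stand beside these shares of 3.94% and 2.42%. Over all genes tested the UUO libraries lay wholly above the CL libraries for 678 and wholly below for 560, of which 358 were called rises and 215 called falls. In control mice 1956 genes rose (17.9%) and 2119 fell (19.4%), with controls of their own. Of the 430 rises 391 were also called as rises in control mice, which is 90.9% of the rises here and 20.0% of those in controls, and of the 264 falls 221 were also falls there, 83.7% of the falls here and 10.4% of those in controls. *Bri3* was called in opposite directions, at 0.54 here and -0.40 in controls. Without TMM normalization 567 genes rose and 152 fell, and the median of all genes moved by 0.08. In 1 fit over all 12 groups of the series 119 rose and 6 fell (762 and 428 at an unadjusted p under 0.05). Without UUO replicate 4, the deepest library, 244 rose and 95 fell, and the falls numbered 133, 141, 167 and 113 without CL replicates 2, 3 and 4 and UUO replicate 2, and 106 with the Y-linked genes as a covariate. With *Xist* as a covariate 573 rose and 386 fell.

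The largest rise under the rule for named genes was that of an injury gene of the tubular epithelium. *Havcr1* (chr11:46739822-46779578), which encodes the injury marker KIM-1 of proximal tubules, stood at 7.82, 10.2, 11.6 and 55.9 CPM in CL and at 371, 562, 490 and 723 CPM in UUO. The groups were far apart, with CL replicate 4 the highest of the CL libraries. The rise of *Havcr1* was 4.42 (SE 0.45, adjusted p = 7.43e-07). *Lcn2*, which encodes the iron-carrier-binding protein NGAL of injured tubules, stood at 2.61, 10.2, 11.6 and 25.4 CPM in CL and at 136, 151, 112 and 115 CPM in UUO, and rose by 3.22 (SE 0.47, adjusted p = 9.06e-05). *Clu*, a secreted chaperone, rose by 1.91 (SE 0.25) from 216 to 442 CPM in CL to 1079 to 1432 CPM in UUO. Of the 8 tubular injury genes 5 rose, *Pdgfb* itself and *Krt8*, a keratin of simple epithelium (0.96), included, and none fell, the list being one that the study chose on these samples, so its direction is not independent evidence. *Rela* (0.34), *Ets2* (0.36) and the stretch-gated channel gene *Piezo1* (-0.14) were not called.

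Genes of adhesion, keratins and calcium-binding proteins that injured epithelium is known to turn on moved in the same direction: 16 of 19 rose (8 in the fit over all 12 groups), none fell and the median log2 fold change was 1.34, against 0.00 for all genes. *S100a6*, which encodes a small calcium-binding protein, had the lowest adjusted p of these, at 22.1, 25.5, 20.8 and 23.4 CPM in CL and 153, 256, 177 and 209 CPM in UUO. The CL libraries lay within 5 CPM of each other, and the rise was 3.13 (SE 0.24, adjusted p = 1.32e-08). *Krt20*, a keratin of urothelium, had 1 count in the 4 CL libraries together and stood at 30.6, 30.8, 36.6 and 38.2 CPM in UUO. The UUO to CL ratio was 90.8 with a 95% interval for counting error alone of 16.0 to 3616. *Krt20* made up most of the summed urothelium markers in UUO, 30.6 to 42.2 CPM, so that sum is no measure apart from it. *Vcam1*, a receptor for leukocytes, stood at 10.4, 12.7, 18.5 and 37.6 CPM in CL and at 150, 255, 337 and 361 CPM in UUO (log2 fold change 3.70, SE 0.33, adjusted p = 1.22e-07). *Anxa3*, an annexin that binds membranes, rose by 2.19 (SE 0.25). *Krt7* (0.21), *Prom1* (-0.09) and *Krt19* (1.54, adjusted p = 0.0833) were not called. The 12 largest rises under the rule for named genes, from *Havcr1* at 4.42 to *Fga* at 2.43, kept their call in all 29 other settings.

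**Figure D2:**
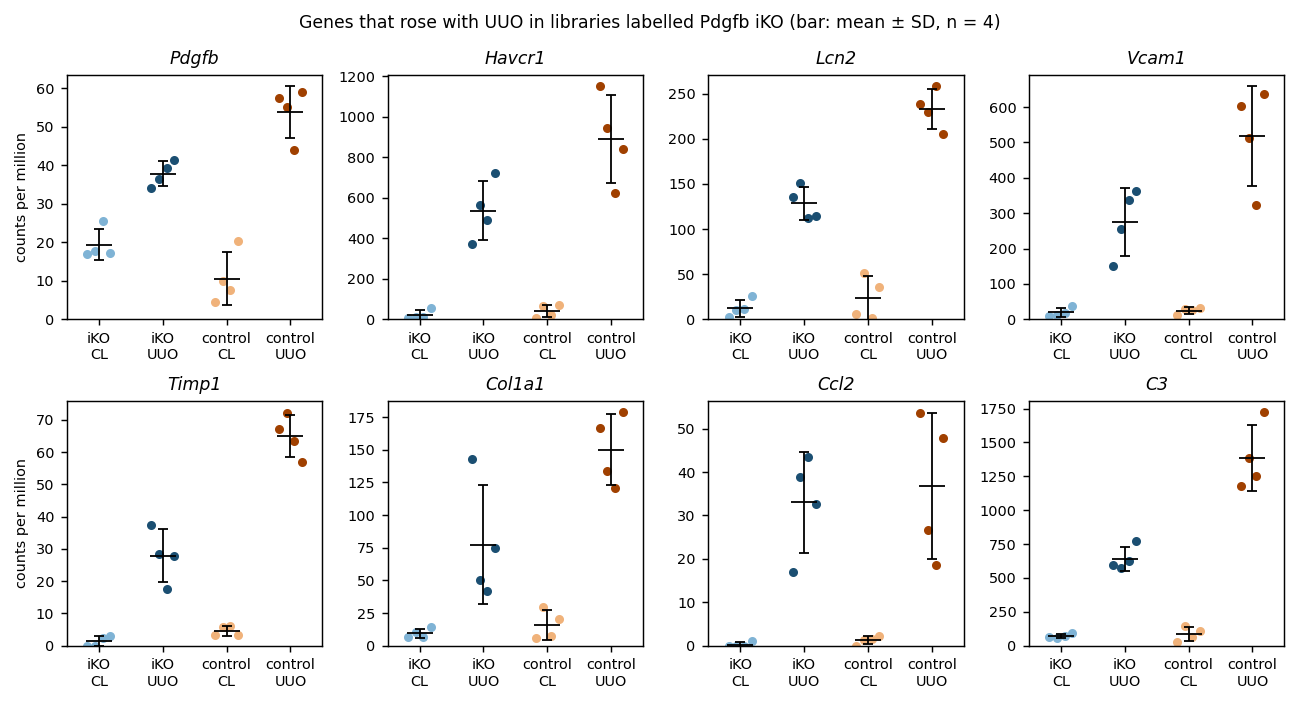
Levels in CPM of 8 genes that rose, with 1 point per library in the 4 groups and bars for the mean ± SD (n = 4). In each panel the 4 UUO libraries labelled *Pdgfb* iKO lie above the 4 CL libraries, and for *Pdgfb* the CL libraries labelled iKO (16.9 to 25.4 CPM) are not below the control CL libraries (4.52 to 20.3 CPM).

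Signals that call in immune cells rose as well. Of 16 chemokines and cytokines 11 had enough counts to be tested, and of these 8 rose and none fell (median 2.53). A gene with almost no counts in CL has no room for a fall and passed the filter through UUO libraries. The share and the median therefore depend on that filter too. *Ccl2*, which attracts monocytes, had 1 count in the 4 CL libraries together and stood at 17.0, 38.8, 43.5 and 32.6 CPM in UUO, a ratio of 93.7 (95% interval for counting error alone 16.5 to 3730). *Cxcl1*, which attracts neutrophils, stood at 0 to 2.55 CPM in CL and at 3.40, 40.0, 47.0 and 42.2 CPM in UUO, where replicate 1 lay close to the CL libraries, and rose by 4.51 (SE 0.51, adjusted p = 1.19e-06). *Cxcl10*, an interferon-induced chemokine for T cells, stood at 6.51, 12.7, 11.6 and 14.2 CPM in CL and at 54.4, 75.4, 60.9 and 78.8 CPM in UUO (2.61, SE 0.30, adjusted p = 3.45e-06). *Il34*, a ligand of the macrophage receptor CSF1R, stood at 6.10 to 7.82 CPM in CL and 17.0 to 49.6 CPM in UUO (2.53, SE 0.34). *Cxcl12*, the member with a value against the others, was at -0.25 (adjusted p = 0.586). By edgeR's exact test on both groups alone 5 rose. That test has its own filter on low counts and covered 9490 genes against 10923, so not all 11 need have been tested. *Cxcl1* had values in only 26 of the other settings and kept its call in each of them. The lower count can therefore reflect genes not tested and does not show lost calls.

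The promoters of *Cxcl10* and *Fga* are printed because they are the ones among the largest rises and falls that held a searched motif in the 250 bases before the start site. Sequences are from RefSeq (GRCm38.p6, the assembly of mm10), and the table used here matched 9 of the 12 largest rises and 8 of the 12 largest falls. They are in lower case, 5′ to 3′ on the strand of the gene, with motif matches in capitals. *Cxcl10* lies on the minus strand (chr5:92348890-92349139) and *Fga* on the plus strand (chr3:83025903-83026152).
Cxcl10: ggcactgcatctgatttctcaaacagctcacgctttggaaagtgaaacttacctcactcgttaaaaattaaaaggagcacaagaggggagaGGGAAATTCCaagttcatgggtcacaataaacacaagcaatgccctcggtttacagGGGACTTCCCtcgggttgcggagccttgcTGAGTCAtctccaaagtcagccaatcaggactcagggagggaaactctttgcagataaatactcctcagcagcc
Fga: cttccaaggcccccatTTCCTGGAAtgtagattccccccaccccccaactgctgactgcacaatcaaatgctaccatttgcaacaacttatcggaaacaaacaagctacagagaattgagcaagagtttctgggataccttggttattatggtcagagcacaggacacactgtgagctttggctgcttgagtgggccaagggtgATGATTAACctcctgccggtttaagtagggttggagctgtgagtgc
In *Cxcl10* a pair of matches to the NF-kB motif starts 159 and 103 bases before the start site and 1 match to the AP-1 motif (TGANTCA) starts 74 bases before it. In *Fga* 1 match to the STAT motif (TTCNNNGAA) starts 234 bases before the start site, and 1 match to the HNF1 motif (GTTAATNAT), read on the other strand, 46 bases before it. On both strands the NF-kB, AP-1, STAT and HNF1 motifs were in 3.75%, 6.87%, 7.18% and 0.781% of 27025 promoters of the same length. With a further T at its end, as first searched, the HNF1 motif was in 0.411% of them and not in *Fga*. The HNF4 motif (CAAAGTCCA) was in 0.381% and in none of the 17 matched promoters, which says only that these letters are not in this window.

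Complement and acute phase genes followed: 11 of 14 rose (6 in the fit over all 12 groups), none fell and the median was 1.71. *C3*, the central complement protein, stood at 65.1, 56.1, 69.3 and 93.5 CPM in CL and at 595, 577, 622 and 769 CPM in UUO, and rose by 3.14 (SE 0.28, adjusted p = 1.18e-07). The fibrinogen genes *Fgg*, *Fga* and *Fgb* rose by 3.00 (SE 0.26), 2.43 (SE 0.25) and 1.98 (SE 0.31). *Fgg* stood at 11.6 to 30.0 CPM in CL and 98.7 to 212 CPM in UUO, without overlap. Of 16 genes of interferon response and antigen presentation 9 rose and none fell (median 1.15). They were 8 genes that present or process antigen, such as *H2-Ab1*, a class II chain (1.79, SE 0.20, adjusted p = 2.25e-06), and *Cd74*, the invariant chain (1.62, SE 0.24), and the transcription factor gene *Irf1* (1.51, SE 0.23), while the interferon-induced *Ifit3* was at 0.04 and *Isg15* at 0.65 (adjusted p = 0.33). *H2-Ab1* stood at 71.4 to 111 CPM in CL and 238 to 419 CPM in UUO.

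Macrophage genes rose in part. Of 14 tested 8 rose and none fell (median 1.46), and their summed level was 201 to 264 CPM in CL and 534 to 638 CPM in UUO (exact permutation p = 0.0286, the smallest possible; adjusted p = 0.124). In whole-kidney RNA a change in the number of cells of a type and a change in RNA per cell cannot be told apart. In the fit over all 12 groups 3 rose. *C1qb*, a subunit of complement C1q that macrophages make, stood at 5.10 to 16.9 CPM in CL and 36.6 to 56.0 CPM in UUO (2.18, SE 0.35). *Ctss*, a lysosomal protease, rose by 1.54 (SE 0.23) and *Lyz2*, lysozyme, by 1.84 (SE 0.30). The chemokine receptor gene *Ccr2*, a mark of recruited monocytes, stood at 2.55 to 14.2 CPM in CL and 23.8 to 42.2 CPM in UUO (1.84, SE 0.37, adjusted p = 0.00303). *Cd68* rose by 2.09 (SE 0.57, adjusted p = 0.0254), a call lost without any of CL replicates 1, 2 or 4 or UUO replicates 2 or 4. The macrophage genes *Adgre1* (0.87), *Mrc1* (0.47) and *Csf1r* (-0.18) were not called, and each of these had overlapping ranges.

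Matrix genes rose with wide spread between UUO libraries. *Col1a1*, a chain of type I collagen, stood at 6.51, 10.2, 6.93 and 14.2 CPM in CL and at 143, 50.3, 41.8 and 74.8 CPM in UUO (2.78, SE 0.42, adjusted p = 0.00014). *Col3a1*, type III collagen, stood at 40.8 to 73.2 CPM in CL and at 412, 202, 124 and 310 CPM in UUO (2.13, SE 0.31). In both genes UUO replicate 1 was the highest and replicate 3 the lowest, and the groups did not overlap. *Timp1*, an inhibitor of matrix proteases, stood at 0, 0, 2.31 and 3.05 CPM in CL and at 37.4, 28.6, 17.4 and 27.9 CPM in UUO (3.97, SE 0.47, adjusted p = 2.76e-06). Of the 14 ECM modification genes, also a list that the study chose on these samples, 8 rose and none fell. *Acta2*, the smooth muscle actin of myofibroblasts, stood at 39.3 to 45.7 CPM in CL and at 61.2, 42.3, 34.0 and 106 CPM in UUO, ranges that overlap (0.49, SE 0.33, adjusted p = 0.435). *Dcn* (0.84), *Tnc* (1.36), *Mmp2* (1.33) and *Timp2* (0.13) were not called either, though *Mmp2* was called without CL replicate 4 and *Tnc* without UUO replicate 3.

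Of 24 fibroblast and myofibroblast genes 14 rose and none fell (median 1.14), and their sum was 803 to 931 CPM in CL and 1311 to 2304 CPM in UUO. That count was 4 in the fit over all 12 groups, 9, 8 and 6 without CL replicates 1, 2 and 3 and 6 without UUO replicate 4. *Vim*, the intermediate filament vimentin, rose by 1.53 (SE 0.22, adjusted p = 9.38e-05) from 48.5 to 71.4 CPM in CL to 126 to 188 CPM in UUO. Of 12 matrix proteases and inhibitors 4 rose, *Timp1*, *Adamts1* (1.41), *Plat* (0.86) and *Plaur* (2.06), the urokinase receptor gene. Without UUO replicate 4 that count was 2, *Plat* being lost also without CL replicate 3 and *Plaur* also without CL replicates 1 or 4 or UUO replicate 2, and without UUO replicate 1 *Timp3* fell. Of 10 genes of TGF-beta signaling 1 rose, *Tgfbi*, a matrix protein that TGF-beta induces (1.76, SE 0.24, adjusted p = 3.24e-05), and *Ccn2*, also known as connective tissue growth factor, was at 0.57 (adjusted p = 0.0773) and called without UUO replicate 3. Of 17 cytoskeleton genes 11 rose (median 0.82), or 4 in the fit over all 12 groups, led by *Vim*, *Tubb2b* (1.37), *Flna* (0.95) and *Tmsb10* (2.14).

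All 10 endothelial genes had negative values (median -0.45) and 2 fell. *Flt1*, a receptor for VEGF, stood at 58.6, 48.4, 67.0 and 52.9 CPM in CL and at 34.0, 26.3, 38.3 and 32.6 CPM in UUO (-0.78, SE 0.18, adjusted p = 0.0111). *Angpt2*, a ligand of TIE2, stood at 10.4, 25.5, 18.5 and 37.6 CPM in CL and at 6.80, 4.57, 6.09 and 11.9 CPM in UUO, where the ranges overlap through CL replicate 1 and UUO replicate 4 (-1.61, SE 0.46, adjusted p = 0.0355). The *Angpt2* call was lost without CL replicates 2 or 4 or UUO replicates 2 or 3 and in the fit over all 12 groups. With the Y-linked genes as a covariate both calls were lost, with *Angpt2* at -0.94. *Tek*, which encodes TIE2, was at -0.62 (adjusted p = 0.223), *Kdr* at -0.48 and *Pecam1* at -0.37. Of the endothelial activation genes *Vcam1* and *Icam1*, another leukocyte receptor (1.29, SE 0.23, adjusted p = 0.00114), rose, and *Klf4* was at 0.32. *Icam1*, like *Flt1*, was not called in the fit over all 12 groups or after thinning. None of the 9 pericyte and vascular smooth muscle genes passed (median -0.10; 0 at an unadjusted p under 0.05, and 0 by DESeq2 or the exact test). Of 7 podocyte genes 1 fell, *Podxl* (-0.67, SE 0.18, adjusted p = 0.0234), which endothelial cells express too, a call lost without any of CL replicates 2 or 3 or UUO replicates 2 to 4, and 6 of the 7 had negative values.

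Stress and growth-control genes rose in part. Of 11 immediate early and stress genes 6 rose and none fell (median 1.12). That count was 2 in the fit over all 12 groups, where *Atf3* and *Sox9* lost their calls. It was 2 after thinning, and 3 with both groups alone or at a mean count of at least 20. These settings tested fewer genes (7482, 9490 and 7836). *Atf3* and *Sox9* had values in only 24 of the other settings, and neither lost its call by a test in the settings with fewer genes. The lower counts there can therefore reflect genes not tested. *Klf6*, a transcription factor, stood at 53.2 to 64.0 CPM in CL and 122 to 187 CPM in UUO (1.46, SE 0.17, adjusted p = 2.76e-06). *Sox4*, a factor of progenitor and injured cells, rose by 1.58 (SE 0.24), *Atf3* by 2.33 (SE 0.52) and *Sox9*, a factor of regenerating tubule cells, by 2.97 (SE 0.71, adjusted p = 0.00984; 0.0576 without UUO replicate 4). *Cdkn1a*, the cell cycle inhibitor p21, stood at 9.15 to 18.2 CPM in CL and 34.0 to 45.3 CPM in UUO and rose by 1.54 (SE 0.26, adjusted p = 0.000611). It and *Gdf15* were the 2 of 9 growth arrest genes that rose, the latter at an adjusted p of 0.0468 that 15 of 24 other settings did not keep, among them those without any 1 CL library, without UUO replicates 1, 2 or 3, and without control CL replicates 2 or 3 or control UUO replicates 1, 3 or 4. Of 18 cell cycle genes 3 rose, *Tubb5* (0.88), *Ccnb2* (1.51) and *Birc5* (1.14), a count that was 1 without any of CL replicates 2, 3 or 4 or UUO replicate 4, and 5 without UUO replicates 1 or 3 or control CL replicate 1.

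The falls were smaller than the rises. Among called genes the median log2 fold change was -0.70 for falls and 1.32 for rises. Among the 12 largest falls *Gldc*, an enzyme of glycine breakdown, stood at 206, 125, 176 and 140 CPM in CL and at 68.0, 52.5, 80.1 and 58.9 CPM in UUO (-1.33, SE 0.20, adjusted p = 0.000161). *Slc5a12*, a lactate transporter, stood at 275, 298, 213 and 240 CPM in CL and at 139, 117, 139 and 87.6 CPM in UUO (-1.11, SE 0.23, adjusted p = 0.00428). *Atp4a*, a proton pump subunit, stood at 52.1, 56.1, 32.4 and 39.6 CPM in CL and at 10.2, 12.6, 15.7 and 23.1 CPM in UUO (-1.42, SE 0.27). In these 3 genes the groups do not overlap, as the rule for naming them required. *Slc4a1*, a bicarbonate exchanger of acid-secreting cells and of red blood cells, fell by 1.21 on the log2 scale (adjusted p = 0.0263), *Casr*, the calcium-sensing receptor, by 1.16, *Acsl1*, which activates fatty acids, by 1.15, and the potassium channel gene *Kcnj10* by 1.14. Without UUO replicate 4 *Slc4a1*, *Casr* and *Kcnj10* lost their calls, *Slc4a1* also without CL replicate 3 or UUO replicate 2, *Casr* also without CL replicate 2 and *Kcnj10* also without CL replicate 4. *Acta1*, the actin of skeletal muscle, fell by 3.20 (SE 0.58), beside the drop of the muscle markers given above. Of the 12 largest falls 1, *D3Ertd751e*, kept its call in all other settings, and 5 lost it in the fit over all 12 groups alone.

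**Figure D3:**
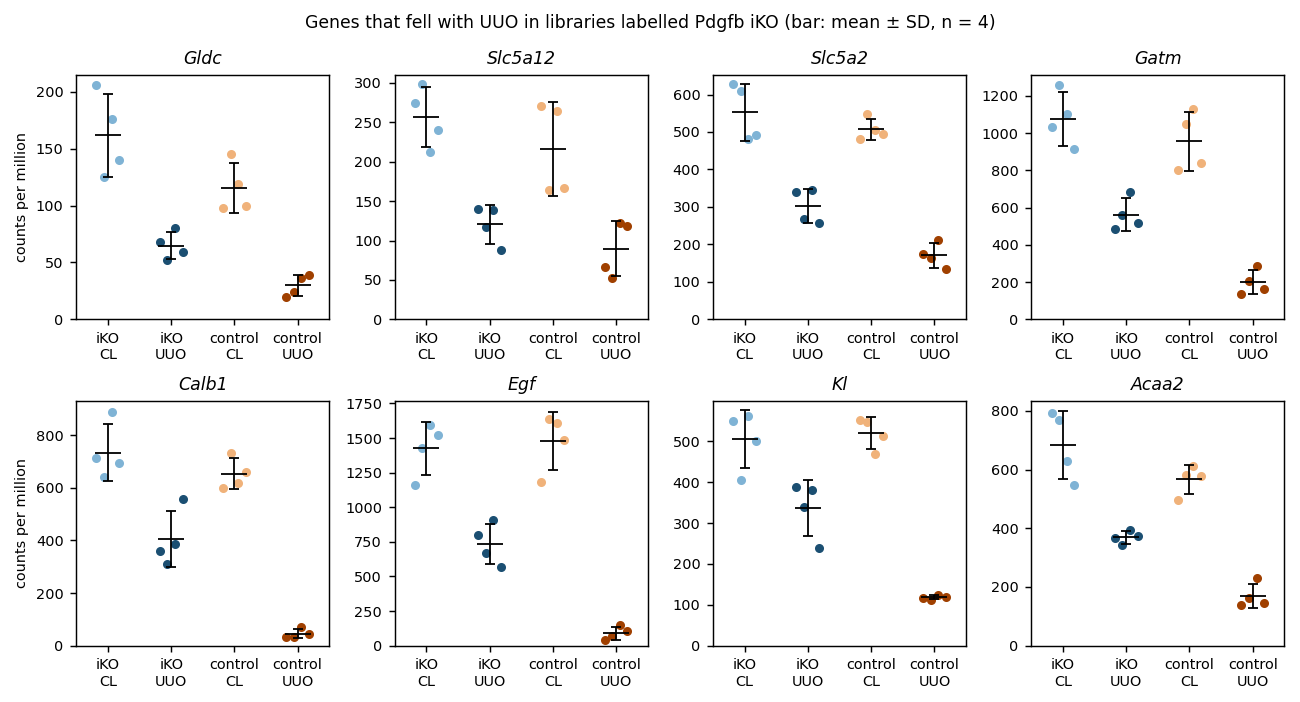
Levels in CPM of 8 genes that fell, with 1 point per library in the 4 groups and bars for the mean ± SD (n = 4). The UUO libraries labelled *Pdgfb* iKO lie below their CL libraries and, for *Calb1*, *Egf* and *Kl*, above all control UUO libraries.

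Proximal tubule genes fell in part. Of 30 tested 13 fell and none rose, against 2.42% of all genes, and the median was -0.53. The summed level was 34255 to 45378 CPM in CL and 20303 to 29709 CPM in UUO replicates 2 to 4, while UUO replicate 1, at 45455 CPM, lay above all CL libraries. *Slc5a2*, the glucose transporter SGLT2, stood at 627, 609, 481 and 492 CPM in CL and at 340, 268, 345 and 256 CPM in UUO (-0.88, SE 0.15, adjusted p = 0.000428). *Gatm*, an enzyme of creatine synthesis, stood at 913 to 1259 CPM in CL and 487 to 685 CPM in UUO (-0.93, SE 0.18), and *Ass1*, an enzyme of arginine synthesis, at 991 to 1794 CPM and 588 to 1092 CPM, where the ranges overlap (-0.78, SE 0.18; not called without UUO replicate 4). *Cyp2e1* (0.76) and *Cyp4b1* (0.50), the members with positive values, stood at 598 and 1471 CPM in CL replicate 1 and at most 56.1 and 125 CPM in the other CL libraries. Without CL replicate 1, the CL library with the Y-linked genes, both rose, by 2.80 and 2.66 on the log2 scale. The number of proximal tubule falls was 6, 7 and 5 without CL replicate 2, UUO replicate 2 and UUO replicate 4, 5 with the Y-linked genes as a covariate and 0 in the fit over all 12 groups.

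Of 14 genes of the loop of Henle and distal tubule 8 fell and none rose (median -0.64). *Slc8a1*, a sodium-calcium exchanger, stood at 315, 326, 430 and 415 CPM in CL and at 204, 169, 216 and 147 CPM in UUO (-1.02, SE 0.15, adjusted p = 9.06e-05). *Slc12a1*, the target of loop diuretics, stood at 810 to 1248 CPM in CL and 487 to 745 CPM in UUO (-0.89, SE 0.19). *Calb1*, a calcium buffer of the distal tubule, stood at 711, 642, 888 and 695 CPM in CL and at 361, 312, 386 and 557 CPM in UUO (-0.85, SE 0.19, adjusted p = 0.00704). *Slc12a3*, the target of thiazides, was at -0.72 (SE 0.17, adjusted p = 0.0119), with 499 CPM in CL replicate 1 and 524 CPM in UUO replicate 1, and was not called without UUO replicate 4. The count of 8 was 5, 5, 4 and 5 without CL replicates 3 and 4 and UUO replicates 2 and 4, 1 with the Y-linked genes as a covariate and 0 in the fit over all 12 groups. Of 14 collecting duct genes 2 fell, *Slc4a1* and the proton pump gene *Atp6v1b1* (-0.86, adjusted p = 0.0291), and all 14 had negative values (median -0.35). That count was 0 in the fit over all 12 groups and 0 or 1 without CL replicates 2, 3 or 4 or UUO replicates 2, 3 or 4.

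Kidney-made factors fell in part. *Egf*, a growth factor of the distal tubule, stood at 1161, 1425, 1597 and 1521 CPM in CL and at 796, 671, 905 and 572 CPM in UUO (-0.96, SE 0.23, adjusted p = 0.0141). *Kl*, which encodes the FGF23 co-receptor klotho, stood at 550, 405, 562 and 501 CPM in CL and at 388, 338, 380 and 239 CPM in UUO (-0.60, SE 0.14, adjusted p = 0.012). The groups do not overlap in either gene. With *Fgf1* (-0.54) these were the 3 of 7 genes of that list that fell, 0 in the fit over all 12 groups, 1 without UUO replicate 2 (*Kl*) and 0 without UUO replicate 4. None of 14 nephron transcription factors passed (0 by DESeq2 and by the exact test, 6 lower at an unadjusted p under 0.05), with *Hnf4a*, a factor of proximal tubules, at -0.41 (adjusted p = 0.109), called without UUO replicate 1.

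Genes of energy metabolism had negative values nearly throughout and few calls. Of 26 fatty acid oxidation genes 8 fell (median -0.45), led by *Acaa2*, a thiolase, at 793, 767, 629 and 549 CPM in CL and 367, 342, 395 and 373 CPM in UUO (-0.89, SE 0.15, adjusted p = 0.000611), with *Ehhadh* (-0.59), *Acadm* (-0.62) and *Hadhb* (-0.59). Of 34 nuclear genes of oxidative phosphorylation all had negative values and 6 fell (median -0.31). *Ndufb10*, a subunit of complex I, stood at 620, 719, 735 and 654 CPM in CL and at 456, 422, 476 and 486 CPM in UUO (-0.56, SE 0.13, adjusted p = 0.00782). DESeq2 called 11 of the 34, the exact test 3 and the fit with the Y-linked genes as a covariate 1. Of the 13 genes encoded in mitochondrial DNA none passed (0 by DESeq2 and by the exact test, 9 lower at an unadjusted p under 0.05; median -0.47), and without UUO replicate 1, whose *mt-Co1* level of 7693 CPM was the highest of the UUO libraries, 8 fell. With all libraries but no filter on low counts 7 fell.

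Of 12 genes of the TCA cycle 4 fell, among them *Mdh2* (-0.64, SE 0.12, adjusted p = 0.00236), *Idh2* (-0.60) and *Idh3b* (-0.48), and 2 without UUO replicate 4. Of 23 genes of amino acid breakdown 5 fell, with *Gldc*, *Kmo* (-0.91), *Prodh* (-0.75) and *Aldh4a1* (-0.60) at the lowest p. The fatty acid count was 4, 4 and 5 without CL replicates 1, 2 and 3 and 4, 5 and 2 without UUO replicates 2, 3 and 4, and the oxidative phosphorylation count was 2 without CL replicate 2, UUO replicate 2 or UUO replicate 4 and 3 without UUO replicate 3. In the fit over all 12 groups none of the fatty acid oxidation, oxidative phosphorylation, TCA cycle and amino acid breakdown genes was called. Of 14 glycolysis genes 1 rose, *Hk2*, a hexokinase, with 1 count in the 4 CL libraries and 25 in UUO, a ratio of 18.0 (95% interval for counting error alone 2.95 to 740), and no count in UUO replicate 1, a call lost without any 1 CL library or UUO replicates 3 or 4. *Cyp51*, of 13 genes of sterol synthesis, fell (-0.63, adjusted p = 0.0359), and of 23 cytosolic ribosomal proteins *Rps24* rose (0.51, adjusted p = 0.0286), calls that 11 and 8 of 29 other settings did not keep, both among them without any of CL replicates 1, 2 or 4 or UUO replicates 1 or 2.

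The size of the response differed from that of the control mice for many genes, by a test of the difference of both responses in 1 fit. Taken with its sign, so that a smaller fall counts as higher, the response was higher in libraries labelled *Pdgfb* iKO for 728 genes (6.66%) and lower for 207 (1.9%), and without TMM normalization higher for 312 and lower for 668, with the median of all genes at -0.29. In 1 fit over all 12 groups it was higher for 10 and lower for 0 genes (edgeR's quasi-likelihood test; 702 and 467 at an unadjusted p under 0.05). The 207 numbered 111 without CL replicate 4, 119 and 120 without UUO replicates 2 and 3, and 135 and 126 without control UUO replicates 2 and 4.

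The 10 genes with the lowest p for the difference all had a higher response here than in controls. *Calb1* stood at 31.6 to 69.5 CPM in control UUO libraries, below the 312 CPM of the lowest UUO library here (control response -3.83, difference 2.98, SE 0.28, adjusted p = 3.24e-07). *Ces1d*, a carboxylesterase, stood at 314, 398, 421 and 379 CPM in CL and at 323, 304, 314 and 204 CPM in UUO, and at 25.0 to 53.8 CPM in control UUO libraries (difference 3.04, SE 0.25, adjusted p = 6.27e-08). *G6pc*, the glucose-releasing enzyme of gluconeogenesis, stood at 122 to 218 CPM in UUO and 17.3 to 33.2 CPM in control UUO libraries (difference 2.62), and *Egf* at 40.9 to 149 CPM in the latter (difference 3.06, SE 0.34). *Mep1b* (2.11), *Nat8f1* (1.96), *Ttr* (3.43), *S100g* (2.82), *Haao* (1.76) and *Tprkb* (1.72) differed in the same direction. *Ces1d*, *G6pc* and *Haao* kept this call in all 26 settings that gave the difference, and the others named here lost it in the fit over all 12 groups alone. *Ces1d* has close paralogs whose reads the counting could have shared out. *Nat8f1* (chr6:85910154-85915914) and *Tprkb* (chr6:85911860-85930284) overlap, so reads could have been shared between them and they may not be separate results.

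By list, the response of 33 of 34 nuclear oxidative phosphorylation genes was higher than in controls (median difference 0.89), with all 34 called as falls in controls. The same held for 20 of 30 proximal tubule genes (median 1.21), 16 of 23 of amino acid breakdown (0.96), 11 of 13 mitochondrially encoded genes (1.00) and 10 of 26 of fatty acid oxidation (0.56). These shares stand beside 6.66% for all genes. Without TMM normalization the counts were 19 for nuclear oxidative phosphorylation, 5 for the mitochondrially encoded genes and 4 for fatty acid oxidation, and in the fit over all 12 groups they were 0 for these 3 lists, 1 for the proximal tubule and 2 for amino acid breakdown. The mitochondrially encoded count was 7 without control UUO replicate 4 or UUO replicate 1 and 6 after thinning. The ECM modification list, of genes that rise, is the study's own for these samples, so its share is not independent evidence. Of its 14 genes 5 had a smaller response than in controls (*Col1a2*, *Col4a1*, *Fn1*, *Adamts1* and *Pdgfrb*), against 1.9% of all genes. That count was 2 without control UUO replicate 4, CL replicate 4 or UUO replicate 3, and 3 without control CL replicates 1 or 3 or UUO replicate 2. It was 2 with the Y-linked genes as a covariate, 8 without the filter on low counts and 0 in the fit over all 12 groups. *Pdgfrb* stood at 55.6 to 68.9 CPM in control UUO libraries, above the 45.4 CPM of the highest UUO library here (difference -1.27, SE 0.36, adjusted p = 0.0275). That call was lost without control CL replicate 1, control UUO replicate 4, CL replicate 4 or UUO replicates 2 or 3, and those of *Col1a2* and *Fn1* without 5 and 11 of the 16 libraries left out singly. *Pdgfb* itself differed by -1.26 (SE 0.39, adjusted p = 0.0461; up to 0.309 in other settings, 16 of 26 of which did not keep the call, 12 of them settings that leave out 1 library). *Mrc1*, the mannose receptor of macrophages, stood at 35.6 to 71.9 CPM in control UUO and 6.09 to 20.4 CPM in UUO libraries (difference -2.82, SE 0.66, adjusted p = 0.00754; 0.0671 without CL replicate 1). *Flt1* (-1.0) and *Ptprb* (-1.12) differed among the endothelial genes, with *Ptprb* called as a rise in controls (0.63) and not here (-0.49, adjusted p = 0.164). Both differences lost their call with the Y-linked genes as a covariate and in the fit over all 12 groups, and that of *Flt1* also after thinning.

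No gene of the injured epithelium list differed in its response (median difference -0.33). *Havcr1* rose by 4.41 in controls against 4.42 here, a difference of 0.01 with an SE of 0.53. This test therefore leaves room for differences larger than that SE in either direction. *Lcn2* (-0.07, SE 0.70) and *Timp1* (0.12, SE 0.50) likewise gave differences within their SE. The rises of *Havcr1*, *Lcn2* and *Timp1* here were 5.82, 4.15 and 5.11 without CL replicate 4. Without CL replicate 1 they were 4.08, 2.81 and 3.49. None of the 11 chemokines and cytokines or of the 16 interferon and antigen presentation genes differed either (median differences -0.10 and -0.20), and a p that misses the threshold does not show equal responses.

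**Figure D4:**
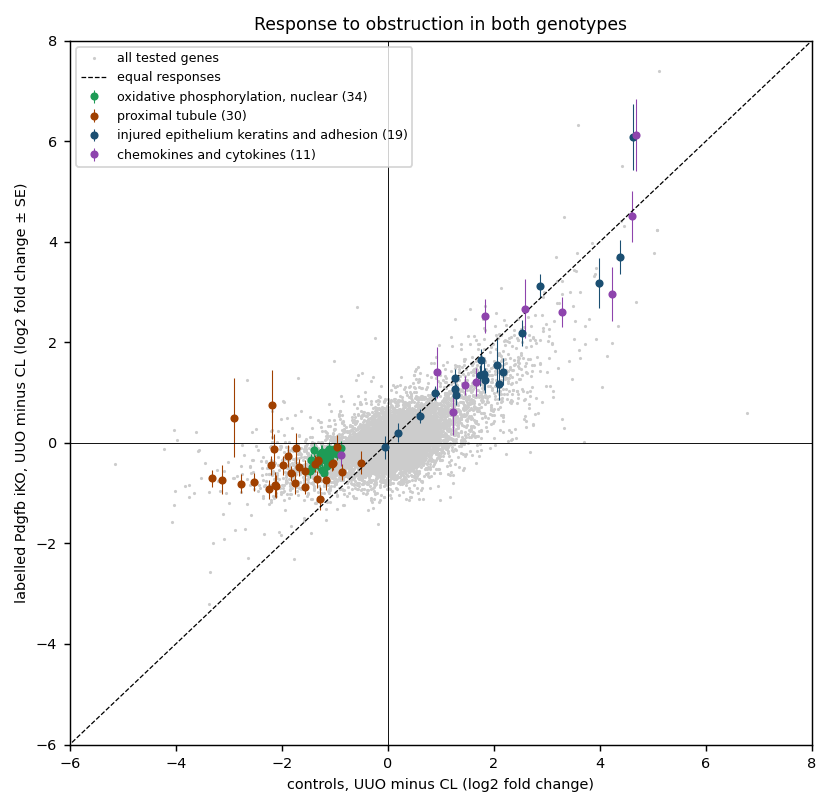
Log2 fold change of UUO against CL for every tested gene, controls on the horizontal and libraries labelled *Pdgfb* iKO on the vertical axis, with 4 lists in color, bars for the SE on the vertical axis and a dashed line where both responses are equal. The oxidative phosphorylation and most proximal tubule genes lie above the line, with list medians of -0.31 and -0.53 on the vertical axis, and the injured epithelium genes lie closer to it.

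**Figure D5:**
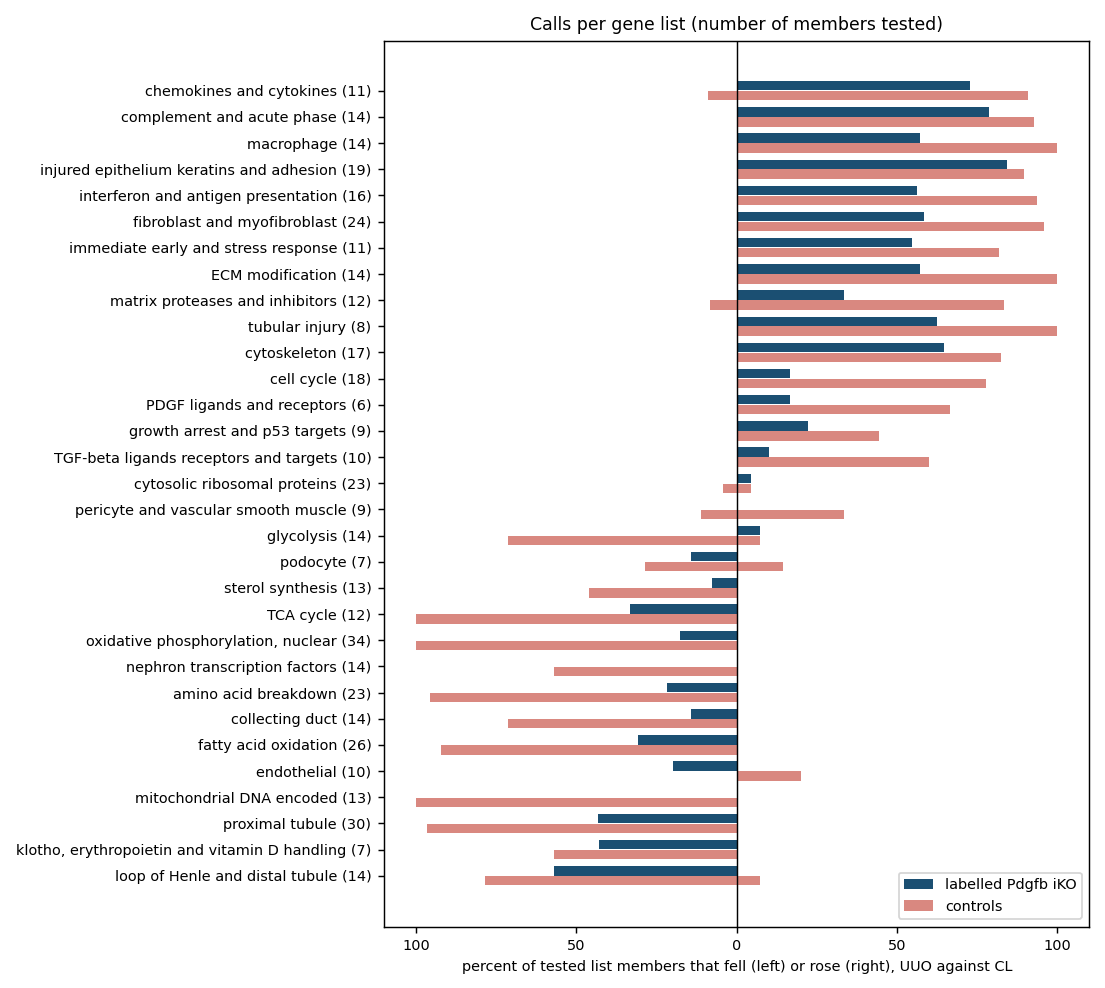
For each list with at least 6 tested genes, bars give the percent of tested members that rose (right) or fell (left) with UUO, in dark blue for libraries labelled *Pdgfb* iKO and in pale red for controls. In the injured epithelium list 16 and 17 of 19 genes rose, while of the nuclear oxidative phosphorylation genes 6 fell in one and 34 of 34 in the other.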

How the data were processed

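Whole-kidney RNA of 75 libraries was sequenced by the authors as Smart-seq3-type libraries, each sample in 4 wells whose reads they merged. Per the methods and the labels' processing notes, reads were mapped with STAR 2.7.3a to mm10, duplicates removed by molecular identifiers with UMI-tools 1.1.4, and genes counted with featureCounts (Subread 1.4.6-p5). The deposited table holds counts without normalization for 32245 genes. Which annotation and strand setting the counting used is not given in the sources used here. Reads of overlapping or antisense genes and of close paralogs may thus be shared.

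The 16 libraries of both *Pdgfb* genotypes (4 per group) were fitted in R 4.3.3 with edgeR 4.0.16 (filterByExpr, TMM, quasi-likelihood fit and test), giving UUO against CL in each genotype and the difference of the responses for 10923 genes, with Benjamini-Hochberg adjustment and a threshold of 0.05. The SE was the log2 fold change divided by the square root of F. The authors' methods name edgeR's exact test, run as an alternative. Per-library values were compared by exact 2-sided permutation tests over 70 ways. Intervals are exact binomial ones at 95% and cover counting error only. Low counts limit single genes: 1 CPM stood for 0.294 to 1.26 counts in the libraries labelled *Pdgfb* iKO and 0.665 to 2.47 in those of the controls. The study's methods name the single animal as the experimental unit, and the labels do not tie libraries to animals. No 2 libraries of the same group agreed within sampling noise (chi-square per degree of freedom at least 1.78). The code was tested on simulated data. Figures were drawn with matplotlib 3.10.9.

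Named genes were every member of the study's lists, the 12 largest rises and 12 largest falls without overlap and with at least 10 counts in each library of the higher group (predicted gene models left out), the 10 genes with the lowest p for the difference, and in each other list the 4 genes with the lowest p and those against its majority. *Bri3*, *Fgb*, *Krt7*, *Krt19*, *Ifit3*, *Isg15*, *Irf1* and the sequence motifs were taken up after their values were seen. The members, lists and tests were chosen with earlier results of these data known. Alternatives were no TMM normalization, DESeq2 1.42.0, the exact test with and without TMM, no filter, a mean count of at least 20, both groups without the controls, all 12 groups together, dispersions by the legacy method, thinning to the shallowest library, a prior count of 2, *Xist* and, chosen after seeing the data, the Y-linked genes as a covariate, and each library left out.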

Additional observations from a re-analysis of the deposited data

Results flagged for a closer look

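In groups of 4 libraries, 13 of 152 groups of values had 1 library apart from the rest by more than Dixon's critical value, where chance gives about 1 in 20. In CL, replicate 1 had the Y-linked sum of 155 CPM (2.55 CPM next), with *Ddx3y* at 61.2, *Eif2s3y* at 59.9 and *Uty* at 22.1 CPM, and also the lowest skeletal muscle sum (89.9 CPM, 116 CPM next) and the lowest *Adamts1* (49.5 CPM, 69.1 CPM next). CL replicate 2 had the highest adipocyte sum (354.3 CPM, 111 CPM next), CL replicate 3 the highest *Pdgfb* (25.4 CPM, 17.8 CPM next) and *Slc4a1* (55.5 CPM, 35.7 CPM next), and CL replicate 4 the highest *Havcr1* (55.9 CPM, 11.6 CPM next). In UUO, replicate 4 had the highest adipocyte sum (382.2 CPM, 58.3 CPM next) and *Dcn* (93.2 CPM, 42.7 CPM next), and replicate 3 the lowest *Piezo1* (36.6 CPM, 47.6 CPM next).

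Among the genes of the study's lists, the 12 largest rises and falls and the 10 genes with the lowest p for the difference, there were 22 whose response to UUO differed between the genotypes by the test of the difference itself, given as log2 values, libraries labelled *Pdgfb* iKO minus controls. The response was lower for *Pdgfb* (-1.26), *Pdgfrb* (-1.27), *Col1a2* (-1.06), *Col4a1* (-0.91), *Fn1* (-1.04), *Adamts1* (-1.20), *Piezo1* (-0.98), *Ptprb* (-1.12), *Flt1* (-1.0), *Klf4* (-1.54) and *Mrc1* (-2.82). It was higher for *Atp4a* (1.68), *Ces1d* (3.04), *Calb1* (2.98), *Mep1b* (2.11), *G6pc* (2.62), *Nat8f1* (1.96), *Ttr* (3.43), *Egf* (3.06), *S100g* (2.82), *Haao* (1.76) and *Tprkb* (1.72). In the fit over all 12 groups only *Ces1d*, *G6pc* and *Haao* of these kept the call. With the Y-linked genes as a covariate it was lost for *Pdgfb*, *Pdgfrb*, *Col1a2*, *Fn1*, *Piezo1*, *Ptprb*, *Flt1* and *Klf4*, and for *Piezo1* and *Klf4* also without CL replicate 2 or UUO replicate 3. The part that reads of both *Xist* and the Y-linked genes in every UUO library labelled *Pdgfb* iKO play in these differences was not tested.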

How the results depend on the processing

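Of 203 genes named for UUO against CL, each under up to 29 other settings, 5459 values kept direction and side of the threshold, 266 lost a call, 71 gained one and none changed sign with a call. Without TMM normalization 152 genes were lower with UUO in libraries labelled *Pdgfb* iKO (264 in the analysis as reported), 4453 were higher and 1153 lower in controls (1956 and 2119), and the difference of responses was higher for 312 and lower for 668 (728 and 207). By edgeR's exact test without TMM 149 were lower, and 4315 higher and 1122 lower in controls. In 1 fit over all 12 groups 119 were higher and 6 lower, in controls 1250 and 1251, and for the difference 10 and 0 (702 and 467 at an unadjusted p under 0.05 by edgeR's quasi-likelihood test). Thinned to the shallowest library, which leaves fewer counts, there were 211 and 110, in controls 1061 and 1221, and for the difference 374 and 108. With the Y-linked genes as a covariate 106 were lower and the difference was lower for 106, while with *Xist* as a covariate 573 were higher and 386 lower and the difference was higher for 908 and lower for 218. DESeq2 called 363 higher and 256 lower. Where no construction of the setting shows it, the cause was not tested. Left out singly, libraries gave 244 to 498 higher and 95 to 343 lower genes, 1655 to 2053 and 1890 to 2218 in controls, and 539 to 847 and 111 to 245 for the difference, the lowest for UUO against CL without UUO replicate 4. No paired analysis was possible because no label ties a CL kidney to the UUO kidney of its mouse, and the replicate numbers follow the order of the samples. Depth limits genes with few counts, such as *Krt20*, *Ccl2* and *Hk2*, to wide intervals.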
